A study of Homo sapiens with 6 samples.

Results

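The genes examined encode enzymes that make serine, folate-bound carbon units, proline and asparagine: PHGDH, PSAT1 and PSPH of serine synthesis, SHMT2, MTHFD2, MTHFD1L and ALDH1L2 of mitochondrial one-carbon metabolism, ALDH18A1 and PYCR1 of proline synthesis, and ASNS of asparagine synthesis. They were chosen by name, with earlier results of these data known, and all 10 were found among the 17534 genes of the table. The RNA came from NCI-H1703, a human lung cancer line that the labels class as squamous cell carcinoma. There were 3 libraries of cells in which a short hairpin RNA (shRNA) targeted PPM1G, a nuclear serine/threonine phosphatase, and 3 control libraries with the genotype label Sh-NC, which the series title calls wild-type. All 6 are bulk RNA of cells in culture, with no drug or dose named in the labels. The labels say neither how many hairpins were used nor whether the cells were a clone or a pool.

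Serine is made from the glycolytic intermediate 3-phosphoglycerate by PHGDH, PSAT1 and PSPH in sequence. In mitochondria SHMT2 moves a carbon unit from serine to tetrahydrofolate, MTHFD2 oxidises it, and MTHFD1L releases it as formate or ALDH1L2 as carbon dioxide, while SHMT1, MTHFD1 and ALDH1L1 carry related reactions in the cytosol. ALDH18A1 and then PYCR1 convert glutamate to proline, and ASNS makes asparagine from aspartate and glutamine. Many of these genes are known targets of ATF4, the transcription factor of the integrated stress response, a program induced by amino acid shortage and other stresses.

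Library totals ranged from 31337553 to 35838246 counts. PPM1G itself fell from 321 ± 13 to 188 ± 6.1 CPM (mean ± SD, n = 3). CPM is a count divided by library size in megareads, here scaled by TMM factors, which adjust for RNA composition. Log2 fold changes compare PPM1G shRNA with control and carry a standard error (SE), and a gene was called at an adjusted p under 0.05 in edgeR's quasi-likelihood test, adjusted by Benjamini-Hochberg over 13060 genes. Of 7 squamous markers, 6 were in the table and 3 (TP63, KRT15 and SOX2) had at least 10 counts in each library. The summed squamous level was 60.1 to 61.0 CPM in control and 17.5 to 18.7 CPM in PPM1G shRNA libraries. In control and PPM1G shRNA, KRT15 averaged 36.2 and 6.62 CPM, SOX2 22.7 and 10.6 CPM, and TP63 only 1.54 and 0.836 CPM. KRT6A, KRT14 and DSG3, and the markers of other cell types PTPRC, CD3E, CDH5, COL3A1, DCN and LUM, reached at most 0.404 CPM in any library. NKX2-1, a lineage factor of lung adenocarcinoma, averaged 114 and 121 CPM in control and PPM1G shRNA. CD68 (1266 and 566 CPM) and COL1A1 (154 and 344 CPM) differed between the groups, and the part of these marker shifts in the results was not tested. In bulk RNA, fewer cells of a type and less RNA per cell cannot be told apart.

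The 10 genes did not move together. SHMT2, MTHFD1L and ASNS rose, PSPH and ALDH18A1 fell, MTHFD2, PYCR1 and ALDH1L2 were not called, and PHGDH and PSAT1 had too few counts to test. Thus 5 of the 8 tested genes were called, where 82.9% of all tested genes were. The 3 rises stand beside 41.5% of all tested genes that rose, and the 2 falls beside 41.3% that fell. The share called was below the background, so the number of changes is not particular to these enzymes. Their median log2 fold change was −0.0069, beside 0.015 over all tested genes. Control and PPM1G shRNA libraries did not overlap for 5 of the 8, against 83.7% of all tested genes. ASNS and MTHFD1L rose at least 2-fold, as did 11.8% of all tested genes, and PSPH fell at least 2-fold, as did 12.4%.

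**Figure D1:**
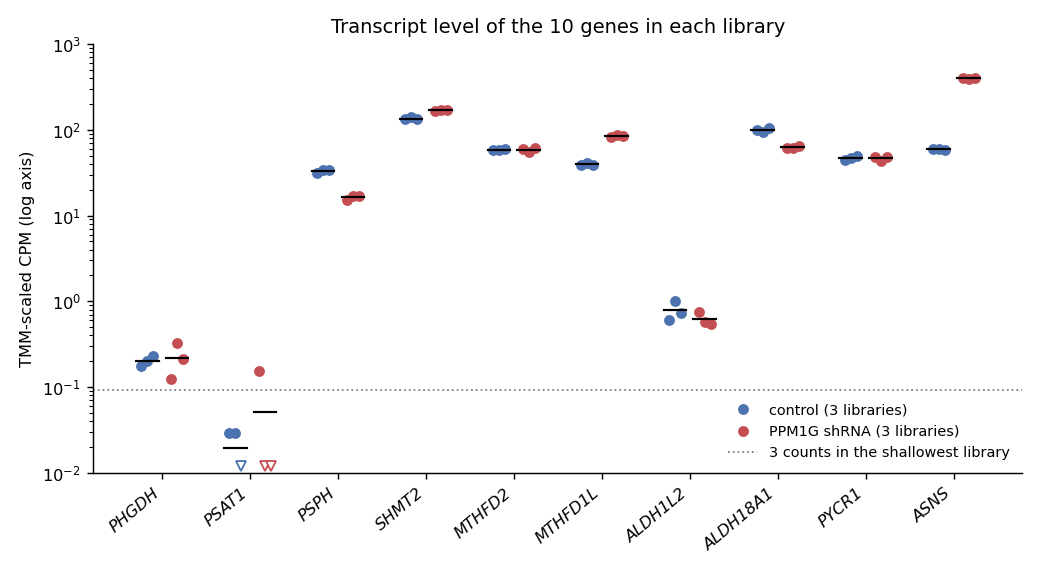
Level of the 10 genes in TMM-scaled CPM on a log axis, with 1 point per library and a bar at the mean of each group; open triangles are libraries at 0 counts. ASNS is the most widely separated, at 57.6 to 59.8 CPM in control and 389.9 to 403 CPM in PPM1G shRNA, and PHGDH and PSAT1 lie near the dotted line for 3 counts in the shallowest library (0.0927 CPM).

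Of the serine synthesis genes, the last enzyme alone was well expressed. PHGDH (Entrez 26227, chromosome 1, 119711934 to 119744215) encodes the dehydrogenase that commits 3-phosphoglycerate to serine; this and all positions below are RefSeq's on GRCh38.p14. Its raw counts were 6, 7 and 8 in the control replicates and 4, 12 and 8 in the PPM1G shRNA replicates, which overlap. Summed over libraries and scaled to their depth, these gave a ratio of 1.11 with an exact 95% interval of 0.590 to 2.09, which covers counting error only. PSAT1 (Entrez 29968, chromosome 9, 78297125 to 78330093), the aminotransferase of the middle step, had raw counts of 1, 1 and 0 against 5, 0 and 0. The reads of the PPM1G shRNA group all came from replicate 1, and the ratio was 2.42 with an exact 95% interval of 0.396 to 25.4. No difference was detectable at this depth for PHGDH or PSAT1.

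PSPH (Entrez 5723, chromosome 7, 56011064 to 56051444), the phosphatase that releases serine from phosphoserine, was far more abundant. Its level was 31.3, 34.1 and 33.9 CPM in the control replicates and 15.2, 17.1 and 17.1 CPM in the PPM1G shRNA replicates. Every PPM1G shRNA library was below every control library, a log2 fold change of −1.01 (SE 0.069, edgeR adjusted p = 7.4e-15) that left 0.498 of the control level. RefSeq names 1 pseudogene of PSPH and 4 of PSAT1, and reads shared with these copies could not be separated.

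The mitochondrial one-carbon genes rose at the entry of the pathway and at formate release, while no change was called for the gene between. SHMT2 (Entrez 6472, chromosome 12, 57229711 to 57234935), the mitochondrial serine hydroxymethyltransferase, stood at 133, 139.7 and 133 CPM in the control replicates and 167, 169 and 168 CPM in the PPM1G shRNA replicates. The groups did not overlap, although the step was small: 1.24 times control, or 0.31 on the log2 scale (SE 0.033, edgeR adjusted p = 3.8e-10). NDUFA4L2, which RefSeq calls COXFA4L2, overlaps the SHMT2 locus and averaged only 0.0291 and 0.00897 CPM in control and PPM1G shRNA.

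MTHFD1L (Entrez 25902, chromosome 6, 150865702 to 151101887), the formyltetrahydrofolate synthetase that yields formate, stood at 39.1, 41.4 and 38.9 CPM in the control replicates and 82.8, 86.0 and 84.8 CPM in the PPM1G shRNA replicates. The groups were far apart, with a ratio of 2.13 and a log2 fold change of 1.09 (SE 0.045, edgeR adjusted p = 9.6e-21). MTHFD2 (Entrez 10797, chromosome 2, 74198615 to 74217565), the dehydrogenase and cyclohydrolase that acts between SHMT2 and MTHFD1L, stood at 58.0, 57.9 and 59.7 CPM against 60.5, 54.8 and 60.8 CPM. Its groups overlapped, and the log2 fold change of 0.0026 had a 95% interval of −0.093 to 0.10 (edgeR adjusted p = 0.96). With library totals in place of TMM factors MTHFD2 was called higher, by 0.10 (edgeR adjusted p = 0.042). That scaling moved the median of all tested genes from 0.015 to 0.12. RefSeq names 7 pseudogenes of MTHFD2 that may share its reads, and SLC4A5, which overlaps its locus, averaged 0.311 and 0.532 CPM in control and PPM1G shRNA.

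ALDH1L2 (Entrez 160428, chromosome 12, 105019790 to 105084458), which oxidises the formyl group to carbon dioxide and makes NADPH, was close to the detection limit. Its raw counts were 21, 35 and 25 in control and 24, 21 and 20 in PPM1G shRNA libraries. The groups overlapped, and the log2 fold change of −0.36 (SE 0.34, edgeR adjusted p = 0.33) had a 95% interval of −1.05 to 0.33, so a fall to about 0.5 of control lies inside its error.

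The genes for the beginning and end of proline synthesis differed from each other. ALDH18A1 (Entrez 5832, chromosome 10, 95605941 to 95656711), the pyrroline-5-carboxylate synthase that begins the route from glutamate, stood at 101, 94.3 and 104 CPM in the control replicates and 61.8, 62.0 and 64.3 CPM in the PPM1G shRNA replicates. All PPM1G shRNA libraries were lower, with a log2 fold change of −0.67 (SE 0.043, ratio 0.630, edgeR adjusted p = 1.3e-15). PYCR1 (Entrez 5831, chromosome 17, 81932391 to 81937300), the mitochondrial reductase of the final step, stood at 44.9, 46.7 and 49.5 CPM against 48.5, 43.3 and 47.8 CPM. These values interleaved, and the log2 fold change of −0.016 had a 95% interval of −0.12 to 0.089 (edgeR adjusted p = 0.78). Its sign depended on the scaling, with 0.084 under library totals.

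ASNS (Entrez 440, chromosome 7, 97851677 to 97928441), the glutamine-dependent asparagine synthetase, stood at 59.8, 59.6 and 57.6 CPM in the control replicates and 397, 389.9 and 403 CPM in the PPM1G shRNA replicates. The spread within each group was small beside the gap, a ratio of 6.72 and a log2 fold change of 2.75 (SE 0.033, edgeR adjusted p = 8.6e-35). In FPKM, which divides counts by gene length and library total, ASNS moved from percentile 79.0 to percentile 98.2 of the genes in the table. The non-coding gene CZ1P-ASNS overlaps the locus and RefSeq names 5 pseudogenes of ASNS, so its count is uncertain to that extent.

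**Figure D2:**
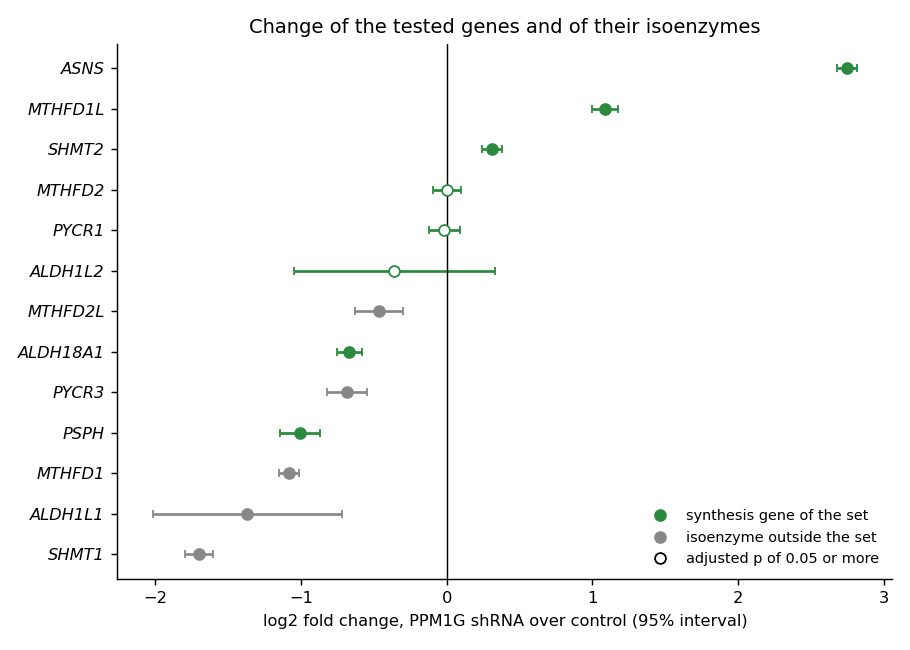
Log2 fold change with its 95% interval for the 8 tested synthesis genes and 5 isoenzymes, with open circles where the adjusted p was 0.05 or more. ASNS (2.75), MTHFD1L (1.09) and SHMT2 (0.31) lie to the right, and the 5 isoenzymes shown lie to the left, SHMT1 lowest at −1.70.

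A short motif was searched in the promoters of the set, and windows of ASNS and MTHFD1L held it. The motif searched was TGATGNAA, the core of the C/EBP-ATF response element that ATF4 dimers bind, on both strands of RefSeq windows (GRCh38.p14) from 250 bases before to 50 after a transcript start. Windows were given for 6 of the genes, and the promoters of PSPH, SHMT2, ALDH1L2 and PYCR1 were not used here. ASNS and MTHFD1L held a match, while PHGDH, PSAT1, MTHFD2 and ALDH18A1 held none, that is 2 of 6 genes. Over all RefSeq genes with a window, 4.46% of 27305 hold a match in at least 1 window, and 3.62% of 35116 windows hold one. The windows of both matching genes and, for contrast, of MTHFD2 are shown 5′ to 3′ on the strand of the gene, with the match in capitals. They lie at chr7:97872359-97872658 (minus strand), chr6:150866236-150866535 (plus strand) and chr2:74198365-74198664 (plus strand).
ASNS: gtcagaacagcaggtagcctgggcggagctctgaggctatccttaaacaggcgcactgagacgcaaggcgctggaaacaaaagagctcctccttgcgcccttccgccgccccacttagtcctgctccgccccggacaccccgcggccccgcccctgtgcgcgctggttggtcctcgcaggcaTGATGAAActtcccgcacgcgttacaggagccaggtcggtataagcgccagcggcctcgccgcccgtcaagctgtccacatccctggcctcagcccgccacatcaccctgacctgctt
MTHFD1L: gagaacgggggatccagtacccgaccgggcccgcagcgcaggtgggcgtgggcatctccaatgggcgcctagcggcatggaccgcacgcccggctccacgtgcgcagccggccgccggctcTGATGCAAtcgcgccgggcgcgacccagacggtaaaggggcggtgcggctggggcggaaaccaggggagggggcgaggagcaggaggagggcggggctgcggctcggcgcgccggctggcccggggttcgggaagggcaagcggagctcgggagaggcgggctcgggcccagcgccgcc
MTHFD2: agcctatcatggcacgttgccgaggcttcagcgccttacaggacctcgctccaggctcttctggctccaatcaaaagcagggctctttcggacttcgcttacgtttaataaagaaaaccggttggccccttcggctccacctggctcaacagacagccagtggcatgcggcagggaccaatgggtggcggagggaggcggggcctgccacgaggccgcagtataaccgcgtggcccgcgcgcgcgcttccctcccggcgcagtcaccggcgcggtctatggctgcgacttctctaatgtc
The match begins 68 bases before the start in this ASNS window and 129 bases before it in this MTHFD1L window. ASNS has 2 windows, of which 1 holds the match, and MTHFD1L has 4, of which 3 overlapping ones hold the same match. PHGDH, PSAT1, MTHFD2 and ALDH18A1 have 1 window each, so less of their sequence was searched. In 1 of the overlapping MTHFD1L windows the match begins after the transcript start. A match describes letters in the window and does not show that a factor was bound.

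Levels per gene length changed order between the groups. In control the mean FPKM was highest for SHMT2 (48.8), followed by ALDH18A1 (26.2), PYCR1 (21.0), ASNS (17.9), MTHFD2 (12.8), PSPH (10.2), MTHFD1L (2.89), ALDH1L2 (0.0942), PHGDH (0.0268) and PSAT1 (0.00851). In PPM1G shRNA the order of mean FPKM was ASNS (129), SHMT2 (65.0), PYCR1 (22.3), ALDH18A1 (17.7), MTHFD2 (13.7), MTHFD1L (6.58), PSPH (5.42), ALDH1L2 (0.0791), PHGDH (0.0312) and PSAT1 (0.0241). Neighbours in each order did not overlap over their 3 libraries, except PHGDH and PSAT1 in PPM1G shRNA. ASNS went from the middle of the order to its top, and in FPKM PYCR1 passed ALDH18A1 as MTHFD1L passed PSPH. The order rests on the gene lengths behind the deposited FPKM, which were not checked here. Neither of these 2 crossings was seen in CPM, which leaves out length. MTHFD1L averaged above PSPH in control already (39.8 and 33.1 CPM), and PYCR1 stayed below ALDH18A1 in PPM1G shRNA (46.5 and 62.7 CPM).

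The isoenzymes reported here, which carry out a like reaction in the cytosol or from a second mitochondrial gene, were lower in PPM1G shRNA. All 5 of them fell, beside the 41.3% of all tested genes that fell. At least 2-fold falls were seen for 3 of them, beside 12.4% of all tested genes. These counts cover the reported isoenzymes, not every one of these enzymes. SHMT1, the cytosolic counterpart of SHMT2, stood at 104, 104 and 111 CPM in control and 34.3, 32.3 and 31.8 CPM in PPM1G shRNA libraries. The groups were far apart, with a log2 fold change of −1.70 (SE 0.046, edgeR adjusted p = 9.9e-26). MTHFD1, the cytosolic enzyme that takes up formate, had 275, 265 and 274 CPM against 129, 132 and 123 CPM, a log2 fold change of −1.08 (SE 0.033, edgeR adjusted p = 2.8e-24). SMCR8 overlaps SHMT1 and averaged 96.9 and 168 CPM in control and PPM1G shRNA, and ZBTB25 overlaps MTHFD1 and averaged 34.2 and 57.3 CPM.

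MTHFD2L, a mitochondrial relative of MTHFD2, fell from 17.3 ± 0.16 to 12.6 ± 0.91 CPM (SD, n = 3), a log2 fold change of −0.46 (SE 0.080). ALDH1L1, the cytosolic relative of ALDH1L2, had raw counts of 39, 45 and 56 against 13, 27 and 16, and its log2 fold change was −1.37 (SE 0.32, edgeR adjusted p = 2.4e-04). PYCR3, the cytosolic pyrroline-5-carboxylate reductase, fell from 30.4 ± 1.2 to 19.0 ± 1.1 CPM (SD, n = 3), and TIGD5, which overlaps it, averaged 16.7 and 45.5 CPM.

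The ratio of 2 genes' counts within a library does not depend on how libraries are scaled, and 5 pairs of isoenzymes were compared in this way. The log2 ratio of SHMT2 to SHMT1 was 0.35, 0.43 and 0.27 in control libraries and 2.28, 2.39 and 2.40 in PPM1G shRNA libraries, a 4.03-fold higher ratio. That of MTHFD1L to MTHFD1 was −2.81, −2.68 and −2.81 in control and −0.64, −0.62 and −0.54 in PPM1G shRNA, 4.49-fold higher. For both pairs the gap between groups was many times the spread within them. The log2 ratio of MTHFD2 to MTHFD2L was higher by 0.47 and that of PYCR1 to PYCR3 by 0.67, again with no overlap.

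For ALDH1L2 to ALDH1L1 the mean log2 ratio was higher by 1.07, but replicate 2 of control (−0.358) and replicate 2 of PPM1G shRNA (−0.355) nearly met. In a two-sided exact permutation test over samples, p was 0.10 for each of the 5 pairs, the smallest that 3 against 3 allows. Adjusted over the pairs this exact p stayed at 0.10, so no pair could pass 0.05 in this design.

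**Figure D3:**
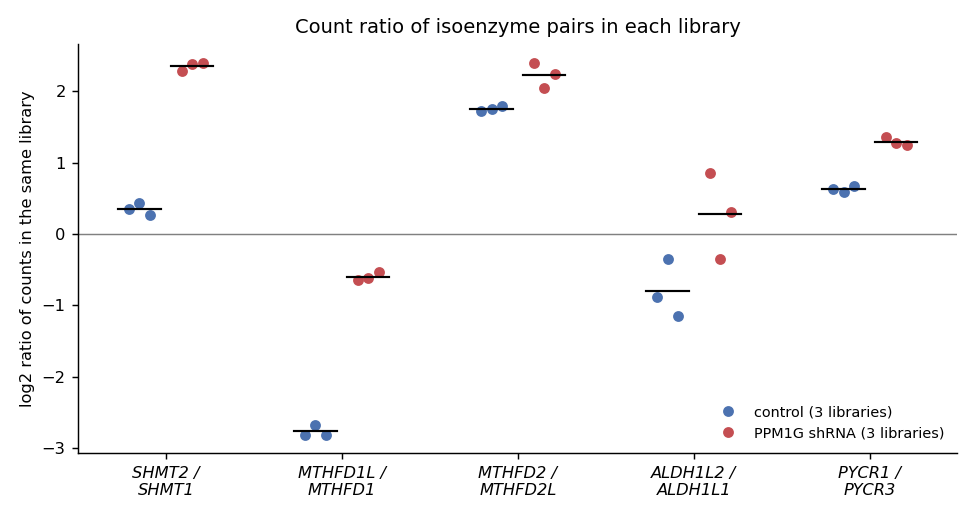
Log2 ratio of the counts of each gene to those of its isoenzyme, with 1 point per library and a bar at the group mean. The SHMT2 to SHMT1 ratio averages 0.35 in control and 2.36 in PPM1G shRNA, and the MTHFD1L to MTHFD1 ratio −2.77 and −0.60, with no overlap between groups in either pair.

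Expressed per length, SHMT2 made up 55.5% ± 1.4 of the summed SHMT1 and SHMT2 FPKM in control and 83.4% ± 0.63 in PPM1G shRNA (SD, n = 3). The sum was 87.9 ± 1.5 FPKM in control and 77.9 ± 0.33 FPKM in PPM1G shRNA. MTHFD1L made up 3.37% ± 0.18 and 13.5% ± 0.45 of the summed MTHFD1 and MTHFD1L FPKM, while that sum was 85.9 ± 1.4 and 48.7 ± 1.6 FPKM. By FPKM, SHMT2 was the more abundant transcript of its pair in every library and MTHFD1L the less abundant of its own. These shares rest on the gene lengths behind the deposited FPKM, which were not checked here. In CPM, which leaves out length, MTHFD1L averaged 39.8 and 84.5 and MTHFD1 271 and 128 in control and PPM1G shRNA. MTHFD2 made up 86.5% ± 0.26 and 89.8% ± 1.1 of its pair with MTHFD2L.

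Other genes of these and adjoining pathways were followed in 8 lists, the isoenzymes included, with 77 genes, of which 71 were tested. Among these, 21 rose and 46 fell, or 29.6% and 64.8%, where 41.5% of all tested genes rose and 41.3% fell. Their median log2 fold change was −0.42, beside 0.015 over all tested genes. Purine synthesis, which consumes formyl groups made from serine, had 12 falls and 1 rise among 13 genes (median −0.66), or 92.3% that fell against 41.3% of all tested genes. PAICS, a bifunctional enzyme of the middle of that pathway, fell from 152 ± 5.6 to 44.3 ± 1.1 CPM (SD, n = 3). PRPS2 and PRPS1, which supply the ribose phosphate donor, fell by 1.60 (SE 0.066) and 1.28 (SE 0.041) on the log2 scale, and PFAS fell by 1.17 (SE 0.054). The 1 gene that rose was ADSS2, an adenylosuccinate synthase, named after its value was seen, by 0.98 (SE 0.039).

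The folate cycle and folate transport list had 4 rises and 7 falls among 11 tested genes (median −0.13). The rises were 36.4% of the list, against 41.5% of all tested genes, and the falls 63.6%, against 41.3%. The number of falls was 5 to 7 over the alternatives, and 5 with library totals, upper-quartile factors or either limma fit, or without control replicate 1 or PPM1G shRNA replicate 1. TYMS, the thymidylate synthase, fell from 74.9 ± 4.0 to 4.80 ± 0.47 CPM, and GGH, which removes glutamate residues from folates, fell from 118 ± 2.8 to 47.1 ± 2.8 CPM (SD, n = 3). TYMS overlaps ENOSF1. DMGDH, a mitochondrial dimethylglycine dehydrogenase that loads carbon on folate, rose from 0.291 ± 0.15 to 6.35 ± 0.40 CPM, and the related sarcosine dehydrogenase gene SARDH fell from 0.816 ± 0.34 to 0.224 ± 0.16 CPM (SD, n = 3).

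The list of serine and glycine use and transport had 5 rises and 8 falls among 14 tested genes (median −0.48). These are 35.7% and 57.1% of the list, against 41.5% and 41.3% of all tested genes. SDSL, a relative of serine dehydratase, rose from 9.75 ± 0.20 to 58.4 ± 1.8 CPM, and SLC1A4, a carrier of serine and other neutral amino acids, rose from 5.05 ± 0.59 to 19.6 ± 1.6 CPM (SD, n = 3). GLDC, the glycine decarboxylase of the glycine cleavage system, fell from 3.10 ± 0.38 to 0.895 ± 0.20 CPM and the sideroflexin gene SFXN2 fell from 8.01 ± 0.47 to 3.92 ± 0.94 CPM (SD, n = 3).

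Proline and ornithine use had 7 falls among 7 genes (median −0.53), where 41.3% of all tested genes fell, although ARG2, named after its value was seen, had overlapping libraries. That count was 5 to 7 over the alternatives, and 5 with library totals or either limma fit. PRODH, the proline dehydrogenase, fell from 1.28 ± 0.72 to 0.0745 ± 0.055 CPM (SD, n = 3), and its near-identical copy LOC102724788, which may share its reads, went from 1.27 to 0.0732 CPM. P4HA1, a collagen prolyl hydroxylase subunit, fell by 0.95 (SE 0.036) on the log2 scale, ODC1, the ornithine decarboxylase, fell by 0.64 (SE 0.036), and OAT, the ornithine aminotransferase, fell by 0.53 (SE 0.046).

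Asparagine, aspartate and glutamine handling had 2 rises and 3 falls among 6 tested genes (median −0.39), or 33.3% and 50%, against 41.5% and 41.3% of all tested genes. ASRGL1, an asparaginase, fell from 3.13 ± 0.28 to 0.801 ± 0.087 CPM (SD, n = 3). The aspartate aminotransferase genes GOT2 and GOT1 fell by 1.15 (SE 0.034) and 0.79 (SE 0.043) on the log2 scale, and the glutamate dehydrogenase gene GLUD1, which overlaps SHLD2, rose by 0.69 (SE 0.027). The methionine cycle, transsulfuration and glutathione list had 4 rises and 4 falls among 10 tested genes (median 0.13), or 40% each way, which is close to those shares of all tested genes. Its number of rises was 3 to 6 over the alternatives. CBS was not called at 2.30 (SE 0.97, edgeR adjusted p = 0.073), with raw counts of 15, 4 and 11 in control and 63, 82 and 8 in PPM1G shRNA. CBSL, a gene outside this list, was called higher at 1.91 (SE 0.33), and whether the 2 share reads was not tested. Both were named after their values were seen. AHCY and MAT2A of the methionine cycle fell by 1.33 (SE 0.039) and 1.19 (SE 0.033), and GCLC and GCLM, the subunits of glutamate-cysteine ligase, rose by 0.93 (SE 0.11) and 0.91 (SE 0.046).

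**Figure D4:**
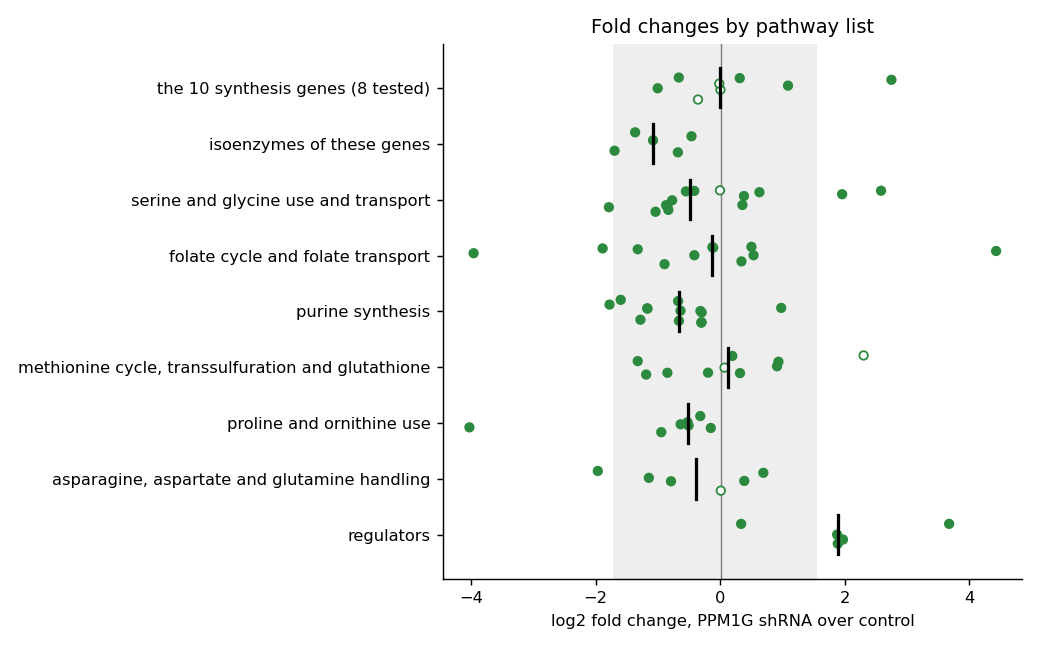
Log2 fold change of each tested gene by list, filled where called, with a black tick at the list median; points are jittered on the vertical axis. The grey band spans percentiles 5 to 95 of all tested genes (−1.71 to 1.53), ASNS lies beyond it at 2.75, and purine synthesis has 1 gene to the right of zero.

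Of the 6 regulators followed, 5 were tested and all 5 rose, 4 of them at least 2-fold. Over all tested genes 41.5% rose and 11.8% rose at least 2-fold. The regulators were chosen with earlier results of these data known, so their count is a description and not a test. ATF4 stood at 193, 179 and 177 CPM in control and 682, 672 and 659.8 CPM in PPM1G shRNA libraries. The groups were far apart, with a log2 fold change of 1.88 (SE 0.032, edgeR adjusted p = 4.7e-31). DDIT3, a stress-induced factor of the C/EBP family, rose from 17.7 ± 2.9 to 226 ± 2.5 CPM (SD, n = 3). MARS1 overlaps the DDIT3 locus, and reads shared with it could not be separated. CEBPB rose from 24.5 ± 1.0 to 90.6 ± 3.2 CPM and the antioxidant regulator gene NFE2L2 rose from 76.9 ± 2.4 to 301 ± 1.9 CPM (SD, n = 3). MYC rose by 0.33 (SE 0.033) on the log2 scale. TRIB3, a pseudokinase gene known as an ATF4 target, was too low to test. It had 7 counts over the control libraries (6, 1 and 0) and 24 over the PPM1G shRNA libraries (8, 9 and 7). The depth-scaled ratio was 3.32 with an exact 95% interval of 1.39 to 9.12. That interval is for counting error only and leaves out the spread among control libraries, where most counts came from replicate 1.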

How the data were processed

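RNA was prepared with a Qiagen column kit and sequenced from SMARTER mRNA libraries, per the labels' protocols. The deposited count table holds whole, unnormalized counts, as judged from its values, and the deposited FPKM values divide by gene length and library total. The build was GRCh38, per the submitters' processing notes. Which aligner, counter, annotation and strand setting were used is not given in the sources used here, so overlapping and antisense genes cannot be told apart. Gene positions and promoters came from RefSeq tables of GRCh38.p14.

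Genes passing edgeR's expression filter at a minimum of 10 counts (13060 genes) were fitted by edgeR 4.0.16 in R 4.3.3, with TMM factors, robust quasi-likelihood dispersions and a single term for group. Benjamini-Hochberg adjustment covered all those genes. Each SE was derived from the fold change and its F statistic. Where a rise or fall is given with no p, it passed that test at 0.05. Alternatives used DESeq2 1.42.0, limma 3.58.1 on log2(FPKM + 1) or log2(FPKM + 0.1), other scalings and filters, and leaving out each library. The edgeR fit, and no other step, was also run on simulated counts in which few genes changed. In these data 82.9% of tested genes were called, so that run does not show how the fit performs here.

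Libraries of 1 group differed from each other beyond sampling noise (chi-square per degree of freedom 2.69 to 6.44) and were counted separately. Whether they were separate cultures is not stated, and a p-value here reflects only the spread among these libraries, possibly technical.

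The genes and lists were chosen with earlier results of these data known. Some genes of the lists are not reported here and are left out of the list counts and medians, though they stayed in the fit. Besides the set, the text names its isoenzymes, the regulators, PPM1G, and from every other list up to 4 called genes with the highest absolute log2 fold change. For PHGDH, MTHFD2 and ASNS the 3 nearest genes in pattern were sought. Markers of lung squamous and adenocarcinoma, neuroendocrine, leukocyte, endothelial and fibroblast cells were read. In control and PPM1G shRNA, NAPSA averaged 2.16 and 21.8 CPM, SYP 0.990 and 1.11 CPM, PECAM1 5.31 and 1.07 CPM and VWF 0.524 and 2.58 CPM. CHGA and SFTPC had 0 counts in every library, and SFTPB reached 0.0810 CPM.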

Additional observations from a re-analysis of the deposited data

How the results depend on the processing

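Of 669 values recomputed under the alternatives, 656 were counted as unchanged. For a fold change this meant the same direction and call, and for an isoenzyme ratio the same direction only. A count had to stay within 1.5 times and a share within 1 SD. PSPH, SHMT2, MTHFD1L, ALDH18A1, ASNS and the 5 isoenzymes reported kept their direction and call in every alternative that tested them. Library totals moved the share of calls that were higher from 50.1% to 55.9%.

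Values near 0 changed sign, and the cause was not tested. The MTHFD2 log2 fold change was −0.0015 with RLE size factors, −0.0014 with DESeq2, and −0.023 to 0.052 leaving out 1 library at a time. The PYCR1 log2 fold change was 0.0838 with library totals, 0.0231 with upper-quartile factors, 0.0803 and 0.0837 with limma on log2(FPKM + 1) and log2(FPKM + 0.1), and −0.048 to 0.035 leaving out 1 library at a time. PHGDH and PSAT1 were tested only without a filter on low counts, with log2 fold changes of 0.14 and 1.15 (edgeR adjusted p = 0.86 and 0.45).

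Same-numbered libraries did not deviate together (correlations 0.033, 0.00054, 0.0034). The labels do not say whether a number is a shared culture or day, and these correlations cannot exclude that. With the replicate number as a block, 3 genes of the set were higher and 2 lower, ASNS was at 2.75, and 10805 genes were called in all, against 10821. The block changed no call among the genes of the set and their isoenzymes. Leaving out 1 library, the log2 ratio difference ran over 1.97 to 2.05 for SHMT2 to SHMT1, 2.14 to 2.21 for MTHFD1L to MTHFD1 and 0.77 to 1.38 for ALDH1L2 to ALDH1L1. Depth limits PHGDH, PSAT1, ALDH1L2 and ALDH1L1, where 3 counts correspond to 0.0808 to 0.0927 CPM. Among other genes named, it also limits SARDH, TRIB3, DMGDH in control (raw counts 8, 6 and 16) and PRODH in PPM1G shRNA (2, 1 and 5).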

Other observations

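The genes nearest to ASNS in pattern were HMOX1, IRS2 and NFIL3, among 10143 genes with a mean log2 CPM of at least 3. The measure was the Euclidean distance between log2 CPM values centred on each gene's mean over the 6 libraries, 0.0693, 0.0941 and 0.117 in that order. HMOX1, the inducible heme oxygenase, averaged 67.1 CPM in control and 454 CPM in PPM1G shRNA. IRS2, an insulin receptor substrate, averaged 59.5 and 384 CPM, and NFIL3, a bZIP transcription factor, 62.5 and 413 CPM. The genes nearest to MTHFD2 were HADHB, SHLD2 and CTNNBL1, at distances of 0.0675, 0.0688 and 0.0691, and none of these 3 was called in edgeR's test (adjusted p = 0.83, 0.49 and 0.58). With 2 groups of 3 libraries, this measure mostly matches genes by the size of the group difference. PHGDH was below the level needed for the search.

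The KEGG pathways annotated in the deposited table cover more of this metabolism and include genes of the set. Over all tested genes 41.5% rose and 41.3% fell. In glycine, serine and threonine metabolism 7 genes rose and 16 fell among 28 tested, or 25% and 57.1% (median log2 fold change −0.28). PGAM1, the glycolytic phosphoglycerate mutase that draws on the same 3-phosphoglycerate as PHGDH, fell there from 255 to 65.2 CPM. In arginine and proline metabolism 8 rose and 24 fell among 36 (22.2% and 66.7%, median −0.46), and SMOX, the spermine oxidase, rose from 6.78 to 41.3 CPM. In alanine, aspartate and glutamate metabolism 10 rose and 15 fell among 29 (34.5% and 51.7%, median −0.19), and CPS1, the mitochondrial carbamoyl phosphate synthetase, fell from 27.8 to 7.13 CPM. In the one carbon pool by folate 8 rose and 8 fell among 19 (42.1% each way, median 0.0026), close to the shares over all tested genes. PGAM1, SMOX and CPS1 were named after their values were seen.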
